A study of Homo sapiens with 4 samples.

Results

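The balance of the BCL2 family was examined in NCI-H460 cells through 10 genes: the pro-survival genes BCL2L1, MCL1, BCL2 and BCL2L2, the pro-death genes BCL2L11, BID, BIK, BAK1 and BAD, and the caspase inhibitor gene XIAP. The BCL2 family members were chosen by name among those that are not its classic p53 targets, and XIAP was added to them. All 10 were found among the 26364 gene symbols counted. NCI-H460 is a widely used cell line grown from a human non-small cell lung cancer. A gamma dose of 4 Gy or 0 Gy was followed by 48 h in 2 uM 3-deazaneplanocin A (DZNep) or in DMSO, the control. DZNep blocks the AHCY enzyme, which clears S-adenosylhomocysteine, and so slows cellular methylation reactions. The 4 groups were DZNep 4 Gy, DZNep 0 Gy, DMSO 4 Gy and DMSO 0 Gy, with 1 library each from this 1 line, and the study searched for genes that differ between them.

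BCL2 family proteins decide whether the outer mitochondrial membrane stays intact. BCL-XL (the product of BCL2L1), MCL1, BCL2 and BCL-W (the product of BCL2L2) hold the pore-forming proteins BAK and BAX in check. The BH3-only proteins BIM (BCL2L11), BID, BIK and BAD bind the pro-survival proteins, and some also engage BAK and BAX directly. Once the membrane is breached, cytochrome c starts the caspase cascade, which XIAP blocks at the caspases themselves. Gene-level counts cannot separate splice forms of opposite function, such as the long and short forms of BCL2L1 and MCL1.

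Libraries held 112461380 to 136594350 counts. Radiation was seen in the p53 targets CDKN1A (2.53 on the log2 scale, SE 0.15) and MDM2 (1.60, SE 0.17), which both rose with adjusted p-values of 4.96e-06 and 0.000395 by edgeR's quasi-likelihood test. With DZNep, AHCY stood at -0.33 (SE 0.14, adjusted p = 0.117) and EZH2, a methyltransferase gene, at -0.26 (SE 0.17, adjusted p = 0.293), and neither passed. RNA of these genes does not measure the activity of the AHCY enzyme, so the values do not check the action of DZNep. Of 5 epithelial markers, KRT8, KRT18 and KRT19 reached 1 CPM in every library, where CPM is a gene's count over the TMM-scaled size of its library, whereas EPCAM and CDH1 stayed under 0.5 CPM. All 4 NRF2 target genes that mark this KEAP1-mutant line were above 100 CPM. Of 9 markers of blood, endothelium, fibroblasts and red cells, only CD14 and COL1A1 reached 1 CPM, and HBB had 0 counts in each library. Those 9 markers summed to 22.1 and 17.3 CPM with DZNep at 4 and 0 Gy, against 29.2 and 23.5 CPM with DMSO, a sum carried by CD14 and COL1A1. The endothelial markers had the opposite order: PECAM1 had 21 and 40 counts with DZNep at 4 and 0 Gy, against 4 and 1 with DMSO, and VWF had 17 and 49, against 0 and 1. The part of these markers in the results was not tested.

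Upstream sequence is shown for BCL2L1 and BID, the pair of genes that passed the test for DZNep, in opposite directions. Each run is the 250 bases before a transcription start listed by RefSeq on GRCh38.p14, on the minus strand, and the capitals mark matches to the motifs named after it. The BCL2L1 windows are chr20:31723964-31724213 for the upstream start and chr20:31722869-31723118 for the downstream start, and the BID window is chr22:17774470-17774719, the one listed first of 5 for that gene.
BCL2L1 upstream start: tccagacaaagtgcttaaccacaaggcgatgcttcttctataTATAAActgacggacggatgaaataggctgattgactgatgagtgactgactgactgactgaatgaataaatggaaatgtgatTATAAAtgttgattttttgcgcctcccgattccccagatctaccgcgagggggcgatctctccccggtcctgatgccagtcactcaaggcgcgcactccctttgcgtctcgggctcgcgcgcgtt
BCL2L1 downstream start: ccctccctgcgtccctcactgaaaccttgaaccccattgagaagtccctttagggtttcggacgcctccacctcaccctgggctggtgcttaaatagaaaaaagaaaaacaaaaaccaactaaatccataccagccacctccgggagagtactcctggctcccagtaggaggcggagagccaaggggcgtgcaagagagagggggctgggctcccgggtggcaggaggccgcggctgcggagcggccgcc
BID first listed start: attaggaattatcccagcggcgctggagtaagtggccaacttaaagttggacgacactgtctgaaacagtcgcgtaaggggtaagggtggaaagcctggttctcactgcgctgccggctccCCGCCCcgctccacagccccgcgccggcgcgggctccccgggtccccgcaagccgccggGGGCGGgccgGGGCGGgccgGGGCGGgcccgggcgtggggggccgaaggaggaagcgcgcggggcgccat
The BID window held 4 GC boxes (GGGCGG on either strand), with first bases 129, 70, 60 and 50 bases before the start, and 30 CG dinucleotides. The BCL2L1 windows held 17 and 12 CG dinucleotides and no complete GC box, and the upstream one held 2 TATA boxes (TATAAA), which begin 208 and 125 bases before the start. The median over all 35116 listed windows was 11 CG dinucleotides in 250 bases. For 7 of the 10 genes, 15 RefSeq windows of 300 bases were at hand, of which those of 1 gene can overlap. A GC box was found in 11 of these 15 windows and in 45.0% of all windows. BCL2L1 was among the 6 of 7 genes with a GC box there, so its lack of one holds for the 250 bases alone. CCAAT was found in 4 of 15, against 34.6% of all windows, CACGTG in 2 of 15, both of BID, against 7.26%, and TATAAA in 1 of 15, of BCL2L1, against 11.5%, each searched on both strands. These matches describe letters only.

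BCL2L1 rose and BID fell with DZNep, and the other 7 tested genes did not pass the test. Across all 13378 tested genes 10.8% were called higher and 12.3% lower with DZNep, so 1 of 9 in each direction is close to that background. The median log2 fold change of the 9 was 0.15, against -0.02 over all tested genes. BIK did not reach 1 CPM in any library and was not tested.

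**Figure D1:**
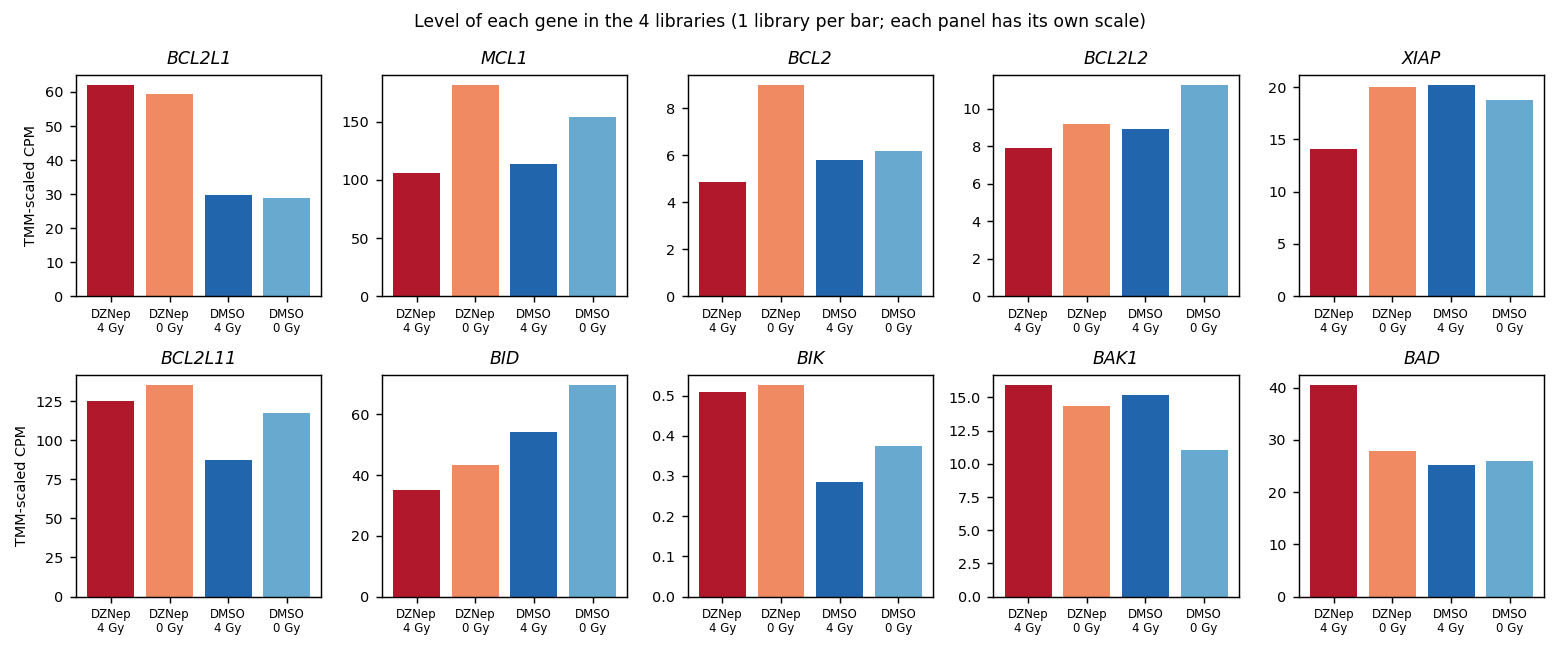
TMM-scaled CPM (vertical axis, linear, from 0, with a scale of its own in each panel) of the 10 genes in the DZNep 4 Gy, DZNep 0 Gy, DMSO 4 Gy and DMSO 0 Gy libraries, 1 bar per library with no replicate. BCL2L1 stood at 62.0 and 59.3 CPM with DZNep, above 29.8 and 28.98 CPM with DMSO, and BID showed the opposite order.

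Among the pro-survival genes, BCL2L1 stood at 62.0 CPM in DZNep 4 Gy and 59.3 CPM in DZNep 0 Gy, against 29.8 CPM (DMSO 4 Gy) and 28.98 CPM (DMSO 0 Gy). Both DZNep libraries lay above both DMSO libraries, and the doses were close to each other under each treatment. The DZNep effect was 1.05 on the log2 scale (SE 0.16, adjusted p = 0.000636, edgeR's quasi-likelihood test over 4 libraries), with 2-library ratios of 1.06 at 4 Gy (95% counting interval 0.998 to 1.12) and 1.03 at 0 Gy (0.98 to 1.09). Its radiation effect was 0.05 (SE 0.16, adjusted p = 0.887). Counts of BCL2L1 are uncertain, because ABALON, a gene on the opposite strand, shares 1224 of the 2859 exonic bases of BCL2L1 in GENCODE release 29, and the use of strand in counting is not given in the sources used here. ABALON had 1020 and 1150 counts with DZNep at 4 and 0 Gy, against 368 and 411 with DMSO, and rose by 1.52 (SE 0.23, adjusted p = 0.000615). With the ABALON counts taken off, BCL2L1 had a DZNep effect of 0.98 (SE 0.16, adjusted p = 0.00107).

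MCL1, which encodes a short-lived survival protein, stood at 105.9 CPM in DZNep 4 Gy and 181.6 CPM in DZNep 0 Gy, against 113.5 CPM (DMSO 4 Gy) and 153.8 CPM (DMSO 0 Gy). Both 4 Gy libraries lay below both 0 Gy libraries, while the drug groups overlapped. Its radiation effect of -0.61 (SE 0.16, adjusted p = 0.0527) did not pass the threshold of 0.05, but it passed under 4 of 6 other settings, with adjusted p from 0.00604 to 0.0473 where it passed and 0.998 at the highest. The 4 Gy over 0 Gy ratio was -0.78 with DZNep (interval -0.81 to -0.75) and -0.44 with DMSO (-0.47 to -0.41). Its DZNep effect was 0.07 (SE 0.15, adjusted p = 0.777).

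BCL2, the founding member of the family, was scarce. It stood at 4.84 CPM in DZNep 4 Gy and 8.99 CPM in DZNep 0 Gy, against 5.79 CPM (DMSO 4 Gy) and 6.18 CPM (DMSO 0 Gy). The DZNep 0 Gy library was the highest and the DZNep 4 Gy library the lowest, with the DMSO pair between them. Neither its DZNep effect (0.15, SE 0.25, adjusted p = 0.708) nor its radiation effect (-0.49, SE 0.25, adjusted p = 0.281) passed.

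BCL2L2 stood at 7.91 CPM with DZNep after 4 Gy and 9.18 CPM in DZNep 0 Gy, against 8.92 CPM (DMSO 4 Gy) and 11.3 CPM (DMSO 0 Gy). At each dose DZNep was the lower of the pair, and the drug effect of -0.23 (SE 0.19, adjusted p = 0.415) and radiation effect of -0.28 (SE 0.19, adjusted p = 0.458) did not pass. BCL2L2 shares 588 exonic bases with the read-through gene BCL2L2-PABPN1, which had 4835, 5659, 4540 and 7305 counts in the order of the libraries just given. PABPN1 itself had 5002, 5942, 4643 and 7455 counts, close to those of the read-through gene. Reads of BCL2L2 can be split between its symbol and the read-through gene or counted for both, and how many are affected is not known.

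**Figure D2:**
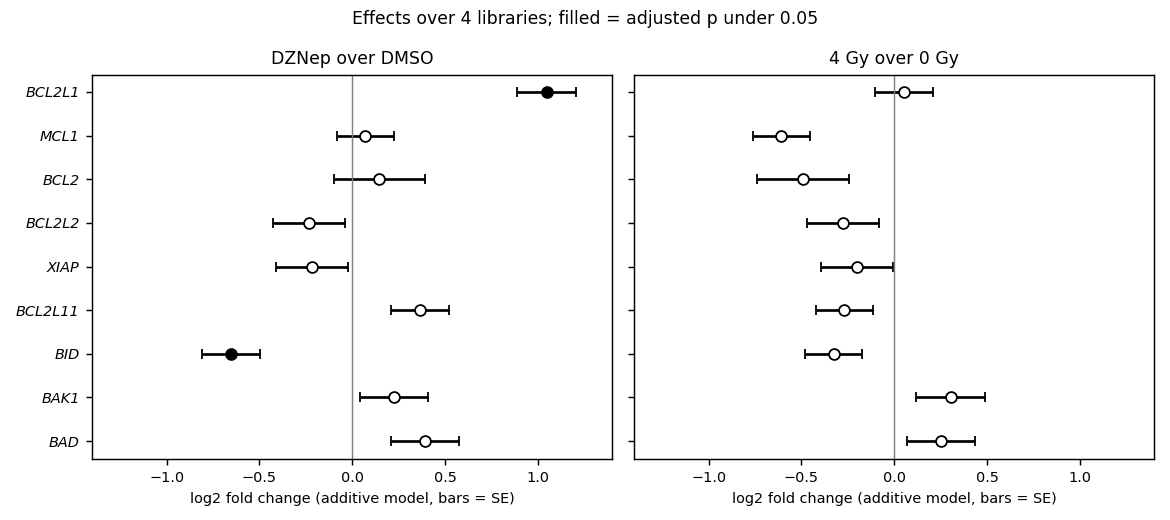
Log2 fold change (horizontal axis) of the 9 tested genes for DZNep over DMSO (left) and 4 Gy over 0 Gy (right) in the additive model over 4 libraries, with bars of 1 SE and filled points for an adjusted p under 0.05. BCL2L1 at 1.05 and BID at -0.65 are the filled points, both on the left, and MCL1 at -0.61 is the farthest from 0 on the right.

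Among the pro-death genes, BID, whose protein links death receptors to mitochondria once caspase 8 cuts it, stood at 35.2 CPM in DZNep 4 Gy and 43.3 CPM in DZNep 0 Gy, against 54.3 CPM (DMSO 4 Gy) and 69.5 CPM (DMSO 0 Gy). Both DZNep libraries lay below both DMSO libraries, and under each treatment the 4 Gy library was the lower. BID fell with DZNep by 0.65 on the log2 scale (SE 0.16, adjusted p = 0.0102), with 2-library ratios of -0.63 at 4 Gy (interval -0.68 to -0.57) and -0.68 at 0 Gy (-0.73 to -0.64). Without dose in the model its adjusted p was 0.123. The radiation effect of BID was -0.33 (SE 0.16, adjusted p = 0.259).

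BCL2L11, the gene of BIM, stood at 125.2 CPM in DZNep 4 Gy and 135.1 CPM in DZNep 0 Gy, against 87.2 CPM (DMSO 4 Gy) and 117.2 CPM (DMSO 0 Gy). Both DZNep libraries lay above both DMSO libraries, but the drug effect of 0.36 (SE 0.16, adjusted p = 0.112) did not pass, nor did the radiation effect of -0.27 (SE 0.16, adjusted p = 0.355). The non-coding gene MIR4435-2HG on the opposite strand shares 727 of its 6093 exonic bases, and had 1195 and 1265 counts with DZNep at 4 and 0 Gy, against 1454 and 2787 with DMSO. With all of those counts taken off, the drug effect of BCL2L11 was 0.498 (SE 0.15, adjusted p = 0.035 by the edgeR test), past the threshold. That step also takes off reads outside the 727 shared bases, which BCL2L11 need not have received. MIR4435-2HG had fewer counts with DZNep, so the step raises the drug effect, and the value is not a corrected effect.

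BAD, a BH3-only gene whose protein is held inactive by phosphorylation, stood at 40.4 CPM in DZNep 4 Gy and 27.9 CPM in DZNep 0 Gy, against 25.3 CPM (DMSO 4 Gy) and 25.9 CPM (DMSO 0 Gy). The DZNep 4 Gy library stood apart from the other libraries, which lay close together. Its DZNep over DMSO ratio was 0.68 at 4 Gy (interval 0.61 to 0.75) and 0.11 at 0 Gy (0.04 to 0.18). Neither the drug effect (0.39, SE 0.18, adjusted p = 0.142) nor the radiation effect (0.25, SE 0.18, adjusted p = 0.475) passed. BAD shares 104 exonic bases with GPR137 on the opposite strand, which had 9080 and 8159 counts with DZNep and 7329 and 7814 with DMSO, so its counts are uncertain.

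BAK1, the gene of the pore-forming protein BAK, stood at 15.9 CPM in DZNep 4 Gy and 14.4 CPM in DZNep 0 Gy, against 15.2 CPM (DMSO 4 Gy) and 11.0 CPM (DMSO 0 Gy). The DMSO 0 Gy library was the lowest, and the drug effect (0.22, SE 0.18, adjusted p = 0.412) and radiation effect (0.304, SE 0.18, adjusted p = 0.381) did not pass. BIK had 58 and 68 counts in DZNep at 4 and 0 Gy, against 32 and 52 counts in DMSO, which is 0.285 to 0.525 CPM over the 4 libraries. Its DZNep over DMSO ratio was 0.81 at 4 Gy (interval 0.19 to 1.51) and 0.47 at 0 Gy (-0.06 to 1.03), the widest counting intervals of the 10 genes.

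XIAP stood at 14.1 CPM in DZNep 4 Gy and 19.97 CPM in DZNep 0 Gy, against 20.2 CPM (DMSO 4 Gy) and 18.8 CPM (DMSO 0 Gy). The DZNep 4 Gy library was the lowest, and the other libraries lay close together. The drug effect of -0.21 (SE 0.19, adjusted p = 0.455) and the radiation effect of -0.199 (SE 0.19, adjusted p = 0.601) did not pass. Processed pseudogenes of XIAP and of BAK1 are annotated, so reads of both genes can be misplaced.

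For radiation, 0 of the 9 tested genes passed the edgeR test, where 2.17% of all tested genes were called higher and 0.897% lower. The median of the 9 was -0.27, against 0.01 over all tested genes, and 6 of the 9 had a negative value. Only MCL1 of the 9 had an unadjusted p under 0.05 in the edgeR test (0.00188), as did 2752 of all 13378 tested genes. DESeq2 called MCL1 alone of the 9 (-0.595, SE 0.18, adjusted p = 0.0259).

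In the 2-library ratios with DZNep at 4 Gy over 0 Gy, MCL1 (-0.78) and BCL2 (-0.89) were at least 1.5-fold lower, which 6.35% of tested genes were, and 0 of 9 were at least 1.5-fold higher, against 7.09%. With DMSO, 0 of 9 were 1.5-fold apart in either direction, against 11.5% higher and 8.20% lower. For DZNep over DMSO at 4 Gy, BCL2L1 and BAD were at least 1.5-fold higher (12.5% of tested genes) and BID lower (15.3%). At 0 Gy BCL2L1 was higher (13.7%) and BID lower (15.5%). With 1 library in each group, these ratios have no replicate check and no test.

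**Figure D3:**
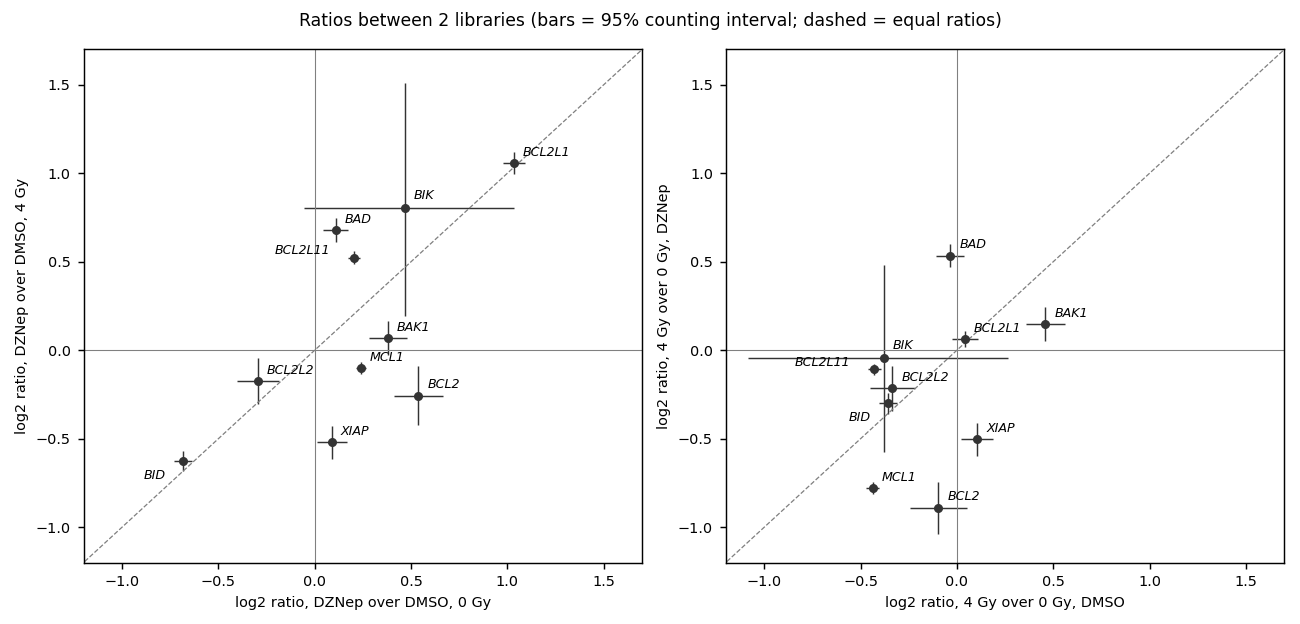
Log2 ratios between 2 libraries with 95% counting intervals for the 10 genes: on the left DZNep over DMSO at 4 Gy (vertical) against 0 Gy (horizontal), on the right 4 Gy over 0 Gy with DZNep (vertical) against DMSO (horizontal). BCL2L1 and BID lie on the dashed line of equal ratios in the left panel, while BAD lies above it and BCL2 and XIAP below it.

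The 10 genes differed in how alike the radiation ratio was under the 2 treatments. The radiation ratio with DZNep minus that with DMSO was 0.02 for BCL2L1 and 0.06 for BID, against a median absolute value of 0.28 over all tested genes. The additive model counts this difference as spread, so a small one favours a call, and BCL2L1 and BID were the called genes. It was -0.79 for BCL2, -0.61 for XIAP and 0.57 for BAD, in absolute size above 90.5%, 82.8% and 80.1% of tested genes. For MCL1 it was -0.34, for BCL2L11 0.32, for BAK1 -0.31 and for BCL2L2 0.12. With 1 library per group these differences have no error estimate and were not tested.

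Because counts depend on gene length, levels of different genes were set side by side as CPM per kilobase of exon (GENCODE release 29, GRCh38, matched by symbol, while the files were made on hg19). MCL1 had 25.9 and 44.5 CPM per kilobase in DZNep at 4 and 0 Gy, against 27.8 and 37.6 in DMSO. It ranked highest of the 10 in every library but DZNep 4 Gy, where BAD ranked first at 30.5. BID held rank 5 in both DZNep libraries, at 12.5 and 15.4 CPM per kilobase, and rank 2 in both DMSO libraries, at 19.3 and 24.8. BCL2L1 held ranks 3 and 4 with DZNep, at 21.7 and 20.8, and rank 5 with DMSO, at 10.4 and 10.1. BAK1, BCL2L2 and XIAP held ranks 6, 7 and 8 in every library, and BCL2 and BIK the last pair of ranks. Neighbours in this order have no replicate spread to be set against.

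Summed over the 4 pro-survival genes, the level was 50.2 CPM per kilobase in DZNep 4 Gy and 68.5 in DZNep 0 Gy, against 41.2 in DMSO 4 Gy and 51.4 in DMSO 0 Gy. The 5 pro-death genes summed to 71.3 and 65.7 with DZNep at 4 and 0 Gy, against 59.8 and 68.9 with DMSO. The ratio of both sums was therefore 0.705 and 1.04 with DZNep, against 0.688 and 0.747 with DMSO, and the DZNep 0 Gy library was the one above 1. On the log2 scale that value was 0.06, and it was -0.89 without MCL1 and BAD, the gene of each side with the highest mean over the 4 libraries. The pro-death sum leaves out BAX, BBC3, PMAIP1 and BMF, among others, so the ratio does not cover the whole family. BAX stood at 292.2 and 122.5 CPM with DZNep at 4 and 0 Gy, against 284.7 and 187.3 CPM with DMSO. Of the 5 pro-death genes summed, BAD was the highest in DZNep 4 Gy alone, with BCL2L11 above it in DZNep 0 Gy and BID above it in both DMSO libraries. MCL1 made up 51.6% and 64.9% of the pro-survival sum with DZNep at 4 and 0 Gy, against 67.5% and 73.2% with DMSO. BCL2L1 made up 43.2% and 30.3% with DZNep, against 25.3% and 19.7% with DMSO. Within the pro-death sum, BID made up 17.6% and 23.5% with DZNep, against 32.3% and 35.9% with DMSO, and BAD 42.7% and 32.0% with DZNep, against 31.8% and 28.3% with DMSO. In bulk RNA, fewer cells that express a gene and less of its RNA per cell cannot be told apart.

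**Figure D4:**
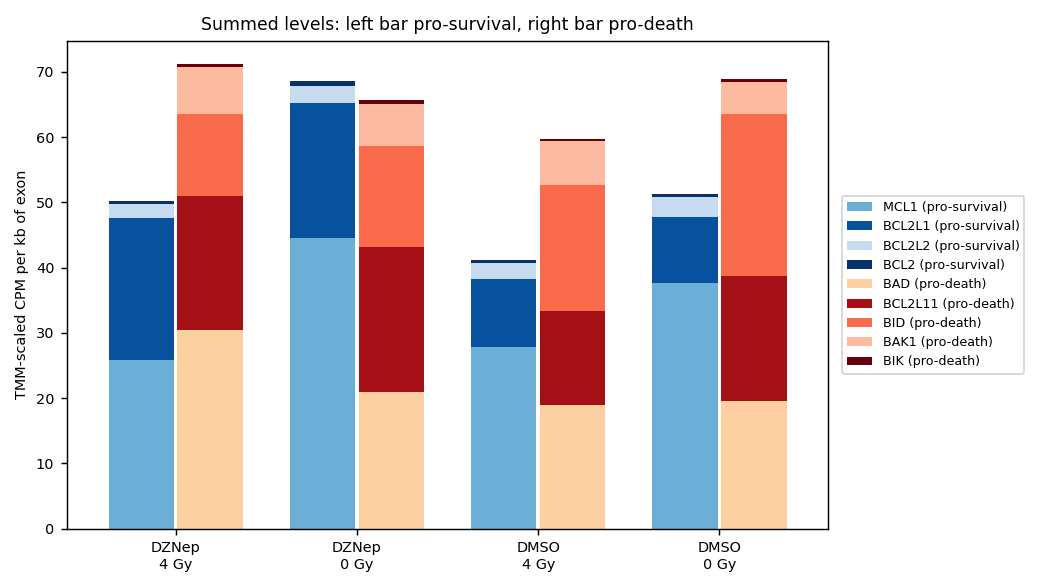
Stacked TMM-scaled CPM per kilobase of exon (vertical axis, linear, from 0) of the 4 pro-survival genes (left bar) and the 5 pro-death genes (right bar) in each of the 4 libraries, 1 library per pair of bars. The pro-survival bar is the taller one in DZNep 0 Gy alone, at 68.5 against 65.7, and the BCL2L1 segment is about as tall in both DZNep libraries.

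Ratios of counts between a pair of genes within a library do not depend on library scaling, and only their change between libraries is read here. BCL2L1 over BID was 1.76 and 1.37 in DZNep at 4 and 0 Gy, against 0.549 and 0.417 in DMSO, a log2 change of 1.68 at 4 Gy and 1.72 at 0 Gy. BCL2L1 over BCL2L11 was 0.495 and 0.439 with DZNep, against 0.342 and 0.247 with DMSO (0.54 and 0.83). BCL2L1 over MCL1 was 0.586 and 0.327 with DZNep, against 0.263 and 0.188 with DMSO (1.16 and 0.79). Each of the 3 ratios was higher in both DZNep libraries than in both DMSO libraries. All 3 hold the counts of BCL2L1, which rose with DZNep, so they are not separate results. MCL1 over BAK1 was 6.66 and 7.48 at 4 Gy with DZNep and DMSO, against 12.6 and 13.9 at 0 Gy, a log2 change of -0.93 and -0.90. MCL1 over BCL2L11 was lower at 4 Gy (0.846) than at 0 Gy (1.34) with DZNep, a log2 change of -0.67. With DMSO that ratio was 1.30 at 4 Gy and 1.31 at 0 Gy, a change of -0.01. BAD over MCL1 was 0.382 with DZNep and 0.223 with DMSO at 4 Gy, against 0.154 and 0.168 at 0 Gy, so the DZNep 4 Gy library was the highest.

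Other genes of the pathway were taken from 4 lists. Of 14 other BCL2 family genes, 9 were tested, and with DZNep 2 rose (10.8% of all tested genes), 2 fell (12.3%) and 5 did not pass (median -0.02, beside -0.02 over all tested genes). BMF (1.19, SE 0.34, adjusted p = 0.0239) and PMAIP1, the p53 target also called NOXA (1.16, SE 0.26, adjusted p = 0.00677), both BH3-only genes, rose. BCL2L13 (-0.72, SE 0.17) and BNIP3 (-0.59, SE 0.15), both linked to removal of mitochondria, fell. After radiation BAX (0.93, SE 0.17) and BBC3 (2.07, SE 0.29), which are p53 targets, rose (2.17% of all tested genes), and 0 of the 9 fell (0.897%). BAX, the partner of BAK in pore formation, stood at 292.2 and 284.7 CPM at 4 Gy with DZNep and DMSO, against 122.5 and 187.3 CPM at 0 Gy.

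Of 11 other IAP genes and IAP antagonists, 8 were tested, and with DZNep 3 rose (10.8% of all tested genes), 1 fell (12.3%) and 4 did not pass (median 0.03). The ubiquitin ligase genes BIRC3 (0.98, SE 0.197) and BIRC2 (0.62, SE 0.16) rose, as did HTRA2 (0.86, SE 0.16), whose mitochondrial protease can bind XIAP, and NAIP fell (-0.81, SE 0.21). NAIP has near-identical copies in the genome, so its counts are uncertain. After radiation 0 of these 8 passed the edgeR test, where 2.17% of all tested genes were called higher and 0.897% lower. An unadjusted p under 0.05 was found for 2 of the 8 and for 2752 of all 13378 tested genes, and DESeq2 called 0 of the 8.

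Of 8 genes listed for the mitochondrial pathway, 1 fell with DZNep (12.3% of all tested genes) and 7 did not pass (median -0.04). The gene that fell was CASP8 (-0.62, SE 0.16), the caspase that cuts BID and so acts before BAX and BAK. CASP8 stood at 77.3 and 97.3 CPM with DZNep at 4 and 0 Gy, against 134.1 and 132.9 CPM with DMSO. After radiation CYCS, the gene of cytochrome c, fell (-0.82, SE 0.16), as did 0.897% of all tested genes, and 7 did not pass (median -0.11). CYCS stood at 40.2 and 53.9 CPM at 4 Gy with DZNep and DMSO, against 78.1 and 86.4 CPM at 0 Gy.

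Of 22 genes whose proteins bind or modify members of the family, 0 rose (10.8% of all tested genes) and 4 fell (12.3%) with DZNep, and 18 did not pass (median -0.11). PRKACA, a catalytic subunit of protein kinase A, fell by 0.97 (SE 0.15), and AKT1 fell by 0.51 (SE 0.14). Both kinases can phosphorylate BAD, as can the PIM kinases, and PIM1 (0.52, SE 0.21, adjusted p = 0.09001), PIM2 (0.22, SE 0.17, adjusted p = 0.373) and PIM3 (0.57, SE 0.21, adjusted p = 0.0734) had positive values that did not pass. RPS6KB1, another kinase gene of this list, stood at 0.005 (SE 0.16, adjusted p = 0.985). TPT1, whose protein binds MCL1, fell by 0.47 (SE 0.13), and MTCH2, the mitochondrial docking protein of cut BID, fell by 0.47 (SE 0.16, adjusted p = 0.04795) but was not called by DESeq2. MTCH2 stood at 34.8 and 41.4 CPM with DZNep at 4 and 0 Gy, against 48.3 and 57.3 CPM with DMSO. After radiation 0 of the 22 passed the edgeR test, where 2.17% of all tested genes were called higher and 0.897% lower. FBXW7, a ubiquitin ligase subunit that targets MCL1, had the largest value (0.78, SE 0.24, adjusted p = 0.0868). Of the 22, 5 had an unadjusted p under 0.05 for radiation in the edgeR test, as did 2752 of all 13378 tested genes, and DESeq2 called 0 of the 22.

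**Figure D5:**
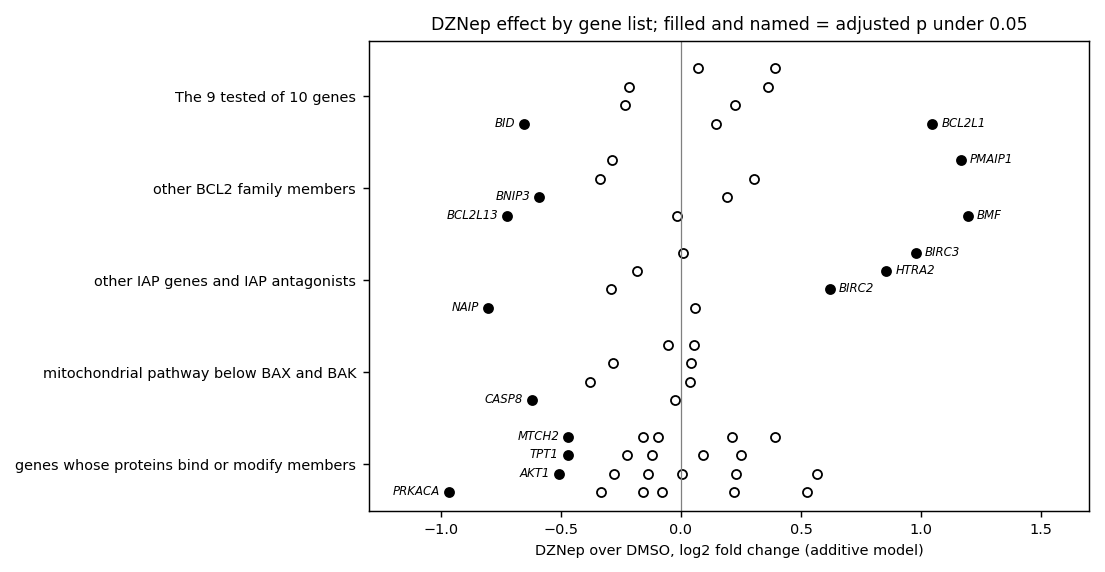
DZNep effect (horizontal axis, log2 fold change in the additive model) of each tested gene, by list (rows), with filled and named points for an adjusted p under 0.05 and open points for the rest; vertical position within a row has no meaning. BCL2L1 and BID are the filled points of the top row, and the lowest row holds 4 filled points, all below 0. CASP8, the filled point of the row named for the pathway below BAX and BAK, acts before them.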

How the data were processed

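Messenger RNA of 4 libraries was counted after Trizol extraction and library preparation with a Lexogen SENSE kit for mRNA (per the labels' protocols). Each deposited table holds the authors' raw counts by gene symbol, not normalized. TopHat, edgeR and hg19 are named in the submitters' processing notes, whereas no version, counting program, annotation or strand setting is given in the sources used here.

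The members and gene lists were chosen with earlier results of these data known. Counts were scaled by TMM in edgeR 4.0.16 (R 4.3.3; factors 0.979 to 1.01), and the 13378 genes that reached 1 CPM in at least 2 libraries entered a test for drug and dose in 1 additive model over all 4 libraries, with the quasi-likelihood test and Benjamini-Hochberg adjustment over all tested genes at 0.05. The model has 1 residual degree of freedom, so any departure from additivity counts as spread, and nothing shows the libraries to be separate cultures. Beside it stood 11.5 prior degrees of freedom, so each SE and p-value drew mostly on spread shared over genes. SE is the absolute log2 fold change over the square root of F. The procedure was also run on simulated data with additive effects and the same spread for every gene. That run does not cover departures from additivity.

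Ratios between 2 libraries used TMM-scaled CPM with a prior count of 2, and their exact conditional binomial 95% intervals cover counting error only. Among counts of 1 to 59, 55.9% to 58.1% were even, so mates may have been counted separately and these intervals may be too narrow. A count of 0 would allow 3 counts, or 0.0217 to 0.0267 CPM. Named genes were the 10 members and, from each other list, those past the threshold and the 2 with the largest absolute effect. PIM1, PIM2, PIM3 and RPS6KB1 were named beyond that rule, as kinase genes of their list. Other settings tried were DESeq2 1.42.0, scaling by RLE or by library size alone, a filter at 10 CPM or none, a model with 1 factor only, a prior count of 0.5, and for the sums no division by length or no MCL1 and BAD. Taking off the counts of overlapping genes was added after seeing the data, and it took off all counts of the other gene, shared or not. Exon lengths came from GENCODE release 29. A result of the list of the mitochondrial pathway is not reported here.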

Additional observations from a re-analysis of the deposited data

Results flagged for a closer look

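The genes XIAP, BCL2 and MCL1 had ratios of opposite sign in the pairs of libraries that make up an effect, with neither counting interval including 0. The difference was not tested for any of them, since each group is 1 library. The counting intervals may be too narrow, as mates may have been counted separately, and those of the positive XIAP ratios come close to 0. XIAP had a DZNep over DMSO ratio of -0.52 at 4 Gy (interval -0.61 to -0.43) and 0.089 at 0 Gy (0.01 to 0.17), and a 4 Gy over 0 Gy ratio of -0.504 with DZNep (-0.596 to -0.41) and 0.105 with DMSO (0.02 to 0.19). BCL2 had a DZNep over DMSO ratio of -0.26 at 4 Gy (-0.42 to -0.09) and 0.54 at 0 Gy (0.41 to 0.67). MCL1 had a DZNep over DMSO ratio of -0.10 at 4 Gy (-0.14 to -0.06) and 0.24 at 0 Gy (0.21 to 0.27). Each negative ratio has the DZNep 4 Gy library in its pair, which was the lowest of the 4 for each of these genes. For BCL2 and MCL1 the positive ratio has the DZNep 0 Gy library in its pair, which was the highest, at 8.99 and 181.6 CPM.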

How the results depend on the processing

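No paired analysis was possible because each group holds 1 library, and leaving out a library leaves no residual degree of freedom. BCL2L1 was called for DZNep under all 6 other settings (1.03 to 1.06 on the log2 scale, adjusted p 2.8e-08 to 0.0239). BID was called under 5 of 6 and lost without the other factor (-0.66, adjusted p = 0.123, over a range of 0.00102 to 0.123). The radiation effect of MCL1 passed with DESeq2 (-0.595, adjusted p = 0.0259), RLE scaling (-0.595, adjusted p = 0.0473), plain library size (-0.64, adjusted p = 0.0343) and a 10 CPM filter (-0.60, adjusted p = 0.00604). BCL2L11 passed for DZNep only with all counts of MIR4435-2HG taken off (0.498, adjusted p = 0.035). That step also takes off reads outside the shared bases, so the value is not a corrected effect. The other members kept their direction and their side of the threshold under every setting that gave a value; BCL2 and BCL2L2 do not pass the 10 CPM filter. Without the other factor, 355 genes rose and 366 fell with DZNep, against 1446 and 1640, and 0 and 0 genes were called for radiation by edgeR (524 at an unadjusted p under 0.05), against 290 and 120. Radiation calls were 452 rises and 217 falls with DESeq2, 134 and 65 without a filter, 590 and 441 with the 10 CPM filter, and 266 falls under plain library size. For these counts and calls the cause was not tested. The log2 balance of the pro-survival over the pro-death sum was -0.51 and 0.06 with DZNep at 4 and 0 Gy, against -0.54 and -0.42 with DMSO. It was -0.27 and 0.23, against -0.21 and -0.16, without division by length. It was -0.75 and -0.89, against -1.61 and -1.84, without MCL1 and BAD, the gene of each side with the highest mean over the libraries. The sign of the balance in DZNep 0 Gy therefore turns with the choice of genes, and its order between libraries does too. Depth limits BIK alone, at 32 to 68 counts.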
